A study of Mus musculus with 28 samples.

Results

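Among 28 striatal RNA libraries, 12 libraries of batch 1 were set apart by RNA integrity number (RIN), a score from an electrophoresis trace that falls as RNA breaks down. The low group held 6 libraries with a RIN of at most 7.6 and the high group 6 with a RIN of 7.86 or more. The other 4 batch 1 libraries lay between these limits, from 7.61 to 7.77, and entered only the slopes on RIN. All mice were C57BL/6J, each library came from the striatum of 1 mouse, and the treatment was placebo or haloperidol, a dopamine receptor blocker used as an antipsychotic. Low RIN libraries came from mice 2, 4, 10 and 12 (placebo) and 3 and 5 (haloperidol), and ranged from RIN 7.08 to 7.58 (7.39 ± 0.172, SD, n = 6). High RIN libraries came from mice 8 and 16 (placebo) and 9, 13, 15 and 17 (haloperidol), and ranged from RIN 7.86 to 8.60 (8.13 ± 0.264, SD, n = 6). The nearest values on either side of the limits were 7.58 against 7.61, and 7.77 against 7.86. Treatment was thus unequal between the groups and was a term in each fit that held both treatments. The labels used here give no dose, duration, age or sex. RIN was not assigned to the mice, so what else differed between mice of low and high RIN cannot be told apart from RIN itself.

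Messenger RNA is selected in many library protocols through the poly(A) tail at its 3′ end. When a molecule is broken before that step, the piece that keeps the tail is recovered and the rest is lost, so that a long transcript yields fewer fragments per base than a short one. RIN is read mostly from ribosomal RNA, and messenger RNAs are known to differ in how fast they decay after death. The labels name the TruSeq RNA v2 kit and total RNA. They do not say how the tissue was handled before extraction.

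Values were deposited as FPKM, a fragment count divided by transcript length and by library depth. The ratio of coverage to FPKM gave an estimated depth of 4880000 to 14400000 fragments in low RIN libraries and 7950000 to 16000000 in high RIN libraries. At those depths, FPKM 1 of a 2000-base transcript stands for 8.78 to 28.8 fragments. The libraries of mice 2 and 3, both in the low group, were the shallowest at 5520000 and 4880000 fragments. Between 15977 and 17153 genes had a value above 0 in each of the 12 libraries. Genes that mark the striatum were present in all of them: Penk, the enkephalin precursor, lay between 537 and 1359 scaled FPKM and Ppp1r1b, a dopamine-regulated phosphatase inhibitor of projection neurons, between 648 and 1386. Pearson's r between libraries over the tested genes was 0.954 to 0.988 within a RIN group and 0.890 to 0.981 between groups, and 0 of 66 pairs held identical values.

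The sum of all FPKM separated the groups without overlap. It was 533984 ± 34033 (SD, n = 6) in low RIN and 419202 ± 37457 (SD, n = 6) in high RIN libraries. FPKM divides by transcript length, so the sum goes up when fragments move to shorter transcripts. The length contrast of a library, the median log2 deviation of 3470 genes of 4000 bases or more minus that of 1061 genes of 300 to under 1000 bases, lay between -0.95 and -0.13 in low RIN and between 0.11 and 0.97 in high RIN libraries. The means differed by -1.22, so that long genes stood lower against short genes in low RIN RNA. Regrouping the libraries within each treatment gave an exact 2-sided permutation p of 0.0044 for both measures, the smallest p that 225 regroupings allow (0.011 adjusted over 5 measures). Estimated depth did not pass, at a log2 difference of -0.38 (exact permutation p = 0.258), nor did the width of the Cufflinks intervals, at a median half-width of 16.5% ± 3.5 (SD, n = 6) against 14.5% ± 1.94 (exact permutation p = 0.262). The RIN difference in the length contrast was -1.49 among placebo and -1.16 among haloperidol libraries.

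**Figure D1:**
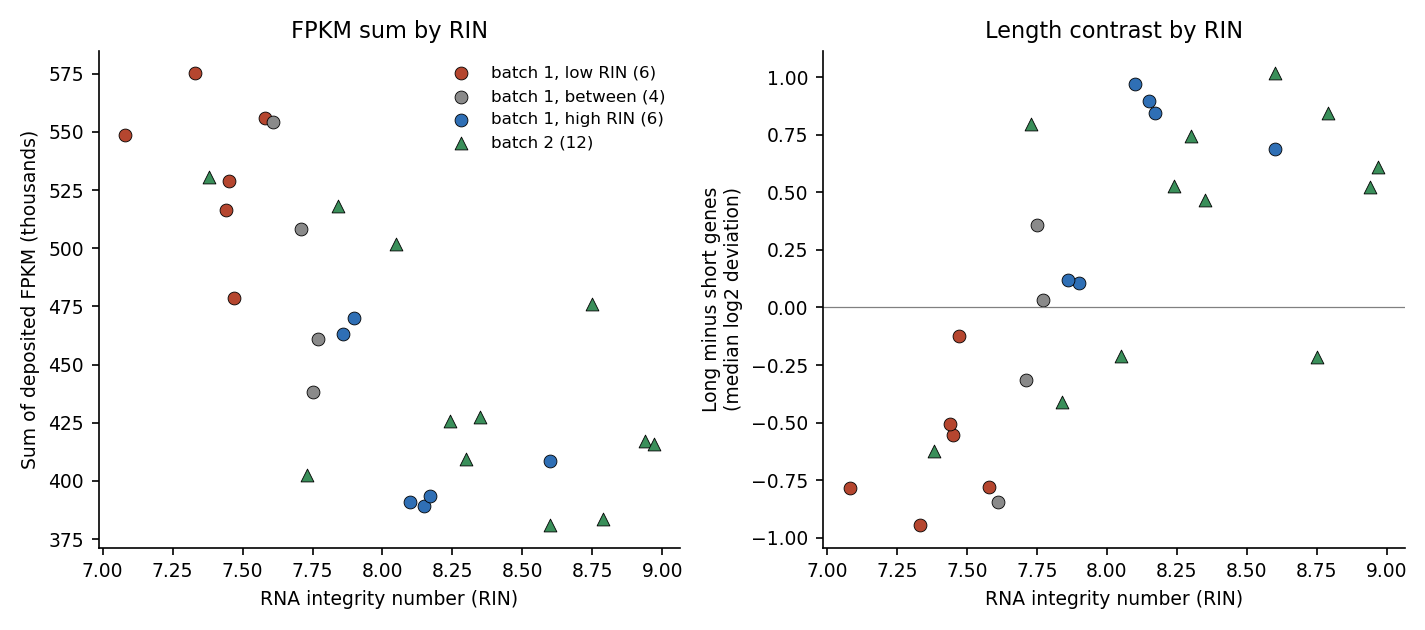
Sum of deposited FPKM (left, in units of 1000) and the contrast of long minus short genes (right, median log2 deviation) against RIN, 1 point per library, for the 6 low, 4 intermediate and 6 high RIN libraries of batch 1 and the 12 libraries of batch 2. In batch 1, libraries of lower RIN have a higher FPKM sum and a lower length contrast, and the low and high RIN points do not overlap on either vertical axis.

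Expression differed between low and high RIN libraries for most genes measured. Of 12711 genes whose FPKM averaged 1 or more, limma called 8843 (69.6%) at an adjusted p under 0.05. Of these, 4374 (34.4%) were higher and 4469 (35.2%) lower in low RIN libraries. The middle 50% of all log2 differences ran from -0.43 to 0.45, and 643 called genes were at least 2-fold higher and 542 at least 2-fold lower. The ranges of both groups did not overlap for 3641 genes (28.6%). Genes called higher were the more abundant, with a median of 19.6 scaled FPKM against 6.86 for those called lower. They held 67.6% to 77.9% of the FPKM sum of a low RIN library and 54.0% to 64.1% of that of a high RIN library. These genes were chosen by their difference in the same libraries, so the direction of this gap follows from the choice. Only its size is described here.

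The even split between directions belongs to the scaling, which centres the median gene. Rescaled to a common FPKM sum, the median of all genes moved to -0.45, with 1773 genes higher and 7594 lower. Differences below are relative to the median gene. Depth as a term in the fit left 8052 calls, and 7666 were made without the shallow libraries of mice 2 and 3. With the log2 FPKM sum as a term, limma called 0 genes and 309 had an unadjusted p under 0.05; that sum differs between the groups without overlap, so that sum and the RIN group cannot be told apart. The labels do not say that mice were housed or processed apart within batch 1, and p-values measure the spread between these mice.

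Transcript length ordered the differences. In the 1061 genes of 300 to under 1000 bases the median log2 difference was 0.87, with 875 genes higher and 30 lower in low RIN libraries. It was 0.44 in 3000 genes of 1000 to under 2000 bases, -0.04 in 5148 genes of 2000 to under 4000 bases, and -0.39 in 2207 genes of 4000 to under 6000 bases. Among 1263 genes of 6000 bases or more it was -0.58, with 28 genes higher and 1024 lower. Leaving out each library in turn kept the shortest of these classes between 0.83 and 0.97 and the longest between -0.64 and -0.53. Rescaling to a common FPKM sum put the class of 1000 to under 2000 bases at 0.00 and the shortest and longest at 0.42 and -1.005. Genes called higher had a median length of 1670 bases, those called lower 4201 and those not called 2781. The 32 genes under 300 bases, mostly small RNAs, spread widely around a median of 0.48, with 6 higher and 2 lower. Their FPKM divide by an effective length near or below 0 and are uncertain.

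**Figure D2:**
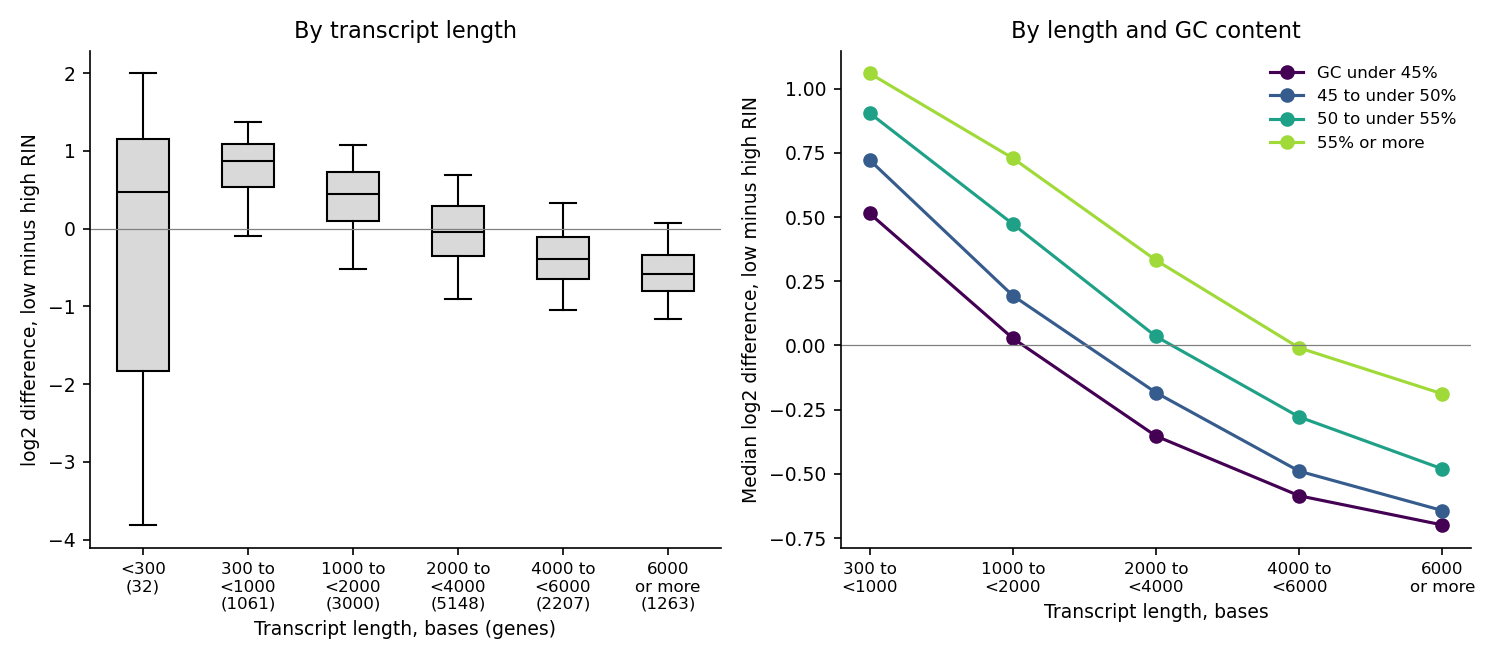
Left, log2 differences (low minus high RIN) of the 12711 genes by length of their most abundant transcript in bases, with the number of genes per class; boxes show quartiles and median, whiskers the 5th to 95th percentile. Right, median log2 difference by length class for 4 classes of GC content; the medians fall with length in each GC class and are higher in GC-rich than in GC-poor genes at each length.

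Over all genes the median log2 difference went from 0.20 in genes of 2 or 3 exons to -0.19 in genes of 13 to 24 exons and -0.46 in 921 genes of 25 or more. Within 2000 to under 4000 bases it was -0.06 for 723 genes of at most 3 exons, -0.07 for 1884 genes of 4 to 9 exons and -0.02 for 2541 genes of 10 or more. The per-library contrast of 10 or more against at most 3 exons in that window differed by 0.03 between RIN groups (exact permutation p = 0.0089, adjusted 0.015). It lay between -0.01 and 0.03 in low RIN and between -0.04 and 0.01 in high RIN libraries, so the groups overlapped. The difference between groups was -0.01 within 4000 to under 6000 bases (exact permutation p = 0.404), and 0.01 at a mean FPKM of at least 5 (exact permutation p = 0.244). At 6000 bases or more the median went the other way, from -0.43 in 54 genes of at most 3 exons to -0.59 in those of 10 or more. Among genes of 7 to 12 exons, the median went from 0.82 at 300 to under 1000 bases to -0.59 at 6000 bases or more. Intron length was compared at like transcript length. Within 2000 to under 4000 bases, genes with under 5000 intron bases had a median of 0.12 and those with 100000 or more -0.28. At 4000 to under 6000 bases the corresponding medians were -0.30 and -0.52, but genes with 5000 to under 20000 intron bases stood highest, at -0.20.

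GC content of the transcript gave a second gradient. Sequence properties came from GENCODE transcripts and were found for 10519 of the 12711 genes (82.8%). The median log2 difference was -0.50 in 417 genes of under 40% GC and 0.59 in 628 genes of 60% or more. At 2000 to under 4000 bases it went from -0.35 in 877 genes of under 45% GC, of which 49 were higher and 565 lower, to 0.33 in 1251 genes of 55% or more, of which 743 were higher and 65 lower. Long GC-rich genes, at 6000 bases or more and 55% GC or more, had a median of -0.19. Across 10241 genes with a coding annotation, log2 length alone went with 44.3% of the variance of the log2 differences, GC content alone with 26.3%, both with 57.9%, and 7 properties together with 59.7%. These are descriptions across genes, which are not independent of each other.

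The 3′ untranslated region (UTR), the stretch after the stop codon that holds many binding sites for decay factors, was followed separately. Among genes with a coding region of 1000 to under 2000 bases, the median log2 difference was 0.51 with a 3′ UTR under 250 bases and -0.56 with one of 4000 bases or more. Among genes with a 3′ UTR of 500 to under 1000 bases, it was 0.50 with a coding region under 500 bases and -0.50 with one of 4000 bases or more, so each part of the transcript showed the gradient with the other held. The pentamer ATTTA, the core of AU-rich elements that recruit decay factors, was counted on the sense strand of the 3′ UTR. It occurred in 55.5% of the 17008 annotated 3′ UTRs of all listed genes, in 64.7% of the 10228 of tested genes, in 35.4% of those of genes called higher and in 89.8% of those of genes called lower. Longer 3′ UTRs hold it more often, and the median 3′ UTR was 419 bases in the former and 1871 in the latter. Within 3′ UTRs of 1000 to under 2000 bases the median log2 difference was 0.15 in 453 genes without it and -0.49 in 150 genes with 7 or more copies. A match says only that the letters are there. GC content moves with the copy number, and its part in this difference was not tested.

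Genes with the smallest p among those higher in low RIN libraries were Trem2, Ubald2, Krtcap2, Crybb1, Nudt22 and S100a6. Trem2, a lipid receptor of microglia (NM_031254, 1091 bases, chromosome 17 from 48485726 to 48491601 in mm9), had a lowest, median and highest value of 22.4, 26.5 and 28.5 scaled FPKM in low RIN and 9.91, 13.5 and 14.7 in high RIN libraries. Every low RIN library lay above every high RIN library, at a log2 difference of 1.09 (SE 0.10, limma adjusted p = 0.000134), or 2.12-fold. Ubald2, of a family with a ubiquitin-associated-like domain, lay at 13.1, 15.6 and 22.6 against 3.58, 4.96 and 6.85, a 3.39-fold difference (log2 1.76, SE 0.16, adjusted p = 0.000134) with no overlap. It shares 1300 exon bases with Gm7367 on the same strand, so the split between them is uncertain. S100a6, a small calcium-binding protein, lay at 30.9, 42.8 and 47.4 against 11.6, 18.5 and 23.5 (log2 1.30, SE 0.13). Krtcap2, a subunit of the oligosaccharyltransferase that glycosylates proteins, was 2.01-fold higher. Crybb1, a crystallin, was 2.33-fold and Nudt22, a nucleoside diphosphate hydrolase, 1.93-fold higher, and all 3 were without overlap. Over all genes tested 28.6% did not overlap, and the genes named here were chosen for their small p.

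The most abundant genes higher in low RIN libraries were short. Fth1, the ferritin heavy chain that stores iron, had lowest, median and highest values of 4535, 5755 and 6551 against 2539, 2796 and 3715 scaled FPKM (log2 0.96, SE 0.16, adjusted p = 0.000205). Cst3, the secreted protease inhibitor cystatin C, lay at 3337, 4086 and 5626 against 1685, 1937 and 2484 (log2 1.13, SE 0.16). The ribosomal protein genes Rpl38 and Rplp1 were 2.31-fold and 2.52-fold higher. The most abundant transcript of Rpl38 has 285 bases, which places its FPKM among the uncertain values under 300 bases. None of these 4 genes, taken from the genes called, overlapped between groups, while 28.6% of all genes tested did not overlap. Quantile normalization put Fth1 at -0.05. Among the largest differences, Gdf1, a growth factor of the TGF-β family, was 4.97-fold higher, but shares 2724 exon bases with Cers1, and its groups overlapped at 35.8 and 44.7. Crip1, a small LIM-domain protein, was 3.01-fold higher and Lst1, a leukocyte transcript, 3.09-fold.

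Genes lower in low RIN libraries with the smallest p were Zscan26, Usp33, Cnr1, Gdap1, Plekha1 and Slc4a10, all of 3321 bases or more. Cnr1, the CB1 cannabinoid receptor of striatal neurons and their inputs (NM_007726, 5807 bases, 2 exons, chromosome 4 from 34011607 to 34035806), had lowest, median and highest values of 9.73, 10.99 and 20.01 scaled FPKM in low RIN and 27.6, 32.5 and 39.4 in high RIN libraries. It was 2.71-fold lower (log2 -1.44, SE 0.16, limma adjusted p = 0.000134). Slc4a10, a neuronal sodium bicarbonate transporter (NM_001242381, 5439 bases, 26 exons, chromosome 2 from 61884572 to 62164800), lay at 8.18, 9.82 and 11.5 against 15.6, 24.98 and 29.8 and was 2.44-fold lower (log2 -1.29, SE 0.15). Zscan26, a zinc finger gene, was 1.78-fold lower, Usp33, a deubiquitinase, 1.68-fold, Gdap1, a mitochondrial protein mutated in Charcot-Marie-Tooth disease, 1.80-fold and Plekha1, a phosphoinositide-binding adaptor, 2.04-fold. All 6 separated the groups without overlap, against 28.6% of all genes tested. They were chosen for their small p in the same libraries.

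Many of the largest falls belonged to genes of low value in low RIN libraries. Mef2a, a neuronal activity-dependent transcription factor of 2870 bases, lay at 0.494, 0.641 and 2.13 scaled FPKM against 2.16, 11.3 and 14.7 and was 7.05-fold lower (log2 -2.82, SE 0.43, adjusted p = 0.000168). Peg3, an imprinted zinc finger gene, lay at 0.965, 1.31 and 2.91 against 3.41, 15.3 and 20.8, 6.62-fold lower. Peg3as lay at 1.15, 2.06 and 6.42 against 7.23, 28.6 and 40.6 (log2 -3.17), but its 865 bases all lie in Peg3 exons on the other strand, so their reads may not be separate. Fam171b, a membrane protein, was 6.87-fold lower, Rims1, a scaffold of the presynaptic active zone, 5.75-fold, Uhmk1, a serine/threonine kinase, 5.59-fold and Strn, the calmodulin-binding striatin, 5.54-fold. In genes so near the pseudocount of 0.5 the fold is understated. Clasp2, a microtubule-binding protein, was split within the low group: it was listed at 0 in mice 2, 4 and 10 and at 21.4, 24.8 and 28.3 in mice 3, 5 and 12, against 27.6 to 41.5 in the high group (log2 -2.70, SE 1.06, adjusted p = 0.0368). A value of exactly 0 at this level can be a failed estimate, and the limma call was lost without any 1 of mice 2, 4, 8, 10 and 16 (adjusted p = 0.0614 to 0.132). The most abundant genes lower in low RIN libraries changed less. Atp1b1, a subunit of the sodium pump, lay at 280, 325 and 381 against 432, 499 and 594 (log2 -0.65, SE 0.11). Ndrg4, Sparcl1, Kif5a and Glul had log2 differences of -0.58, -0.30, -0.30 and -0.29, with groups that overlapped for all but Sparcl1. The limma call of Glul was lost without mouse 3 or 16 (adjusted p = 0.0515 and 0.0713) and that of Sparcl1 without mouse 8 (0.0513).

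**Figure D3:**
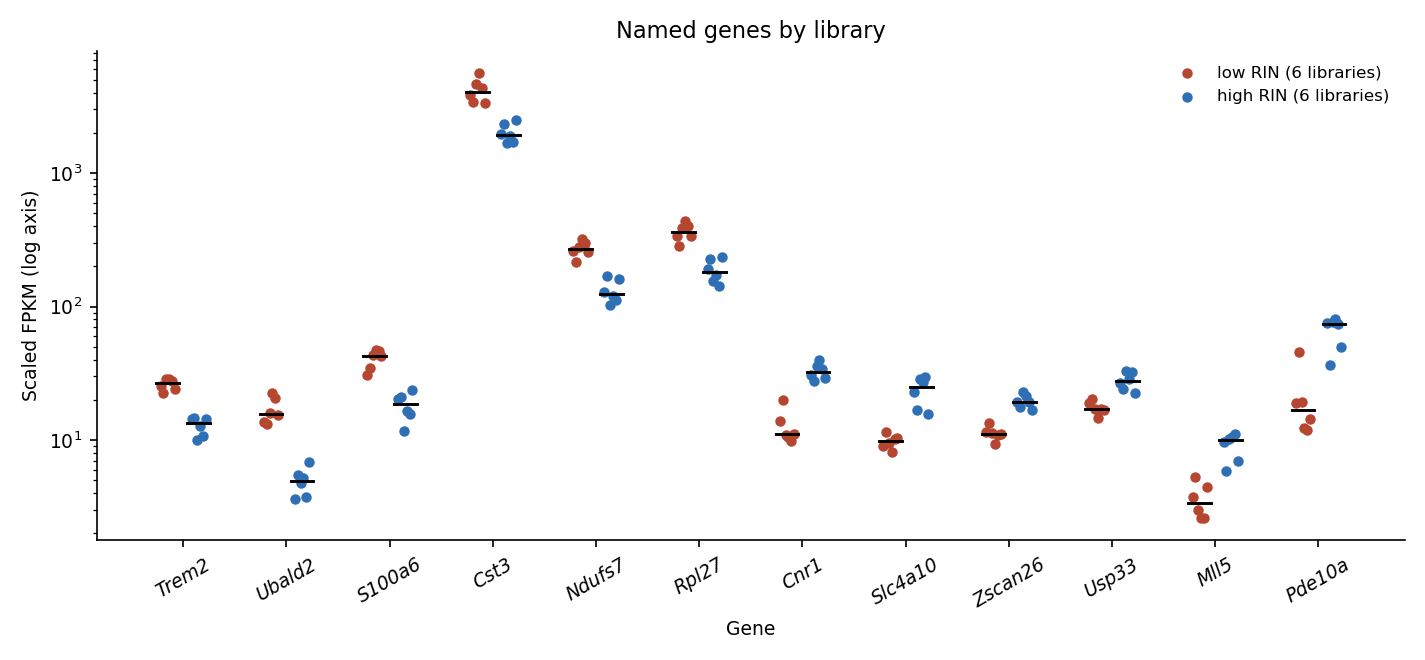
Scaled FPKM (log axis) of 12 named genes in each of the 6 low and 6 high RIN libraries of batch 1; points are libraries and black bars medians. The first 6 genes are higher and the last 6 lower in low RIN libraries, and only Pde10a overlaps between the groups, through 1 low RIN library. Over all genes tested, 28.6% do not overlap.

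Some genes went against their length. These were chosen after their values were seen. Of the 28 genes of 6000 bases or more that were higher, Myh7, a muscle myosin heavy chain of 6054 bases, was 2.17-fold higher without overlap (5.78 against 2.37 scaled FPKM at the median) and shares 463 exon bases with D830015G02Rik, which is antisense to it. Bai1, an adhesion receptor abundant in brain, had medians of 128 against 73.2 (log2 0.77, SE 0.13), and the splicing factor Prpf19 of 42.8 against 27.2 (log2 0.55, SE 0.10). Malat1, a long nuclear RNA that ends without a poly(A) tail, had lowest, median and highest values of 81.5, 132 and 163 against 66.6, 89.9 and 112 (log2 0.50, SE 0.19, adjusted p = 0.0323), a limma call lost without any 1 of mice 4, 5, 8, 9, 10 and 16 (adjusted p = 0.0505 to 0.139). Of the 30 genes of 300 to under 1000 bases that were lower, Rims3, another active zone protein, was 4.1-fold lower without overlap (2.71 against 13.7 at the median), and Rnf141, a RING finger protein, 4.1-fold. Pdyn, the dynorphin precursor, at 747 bases, was 3.30-fold lower.

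At the transcript level, 4537 of 15239 transcripts (29.8%) were higher and 4694 (30.8%) lower in low RIN libraries. Relative transcript abundance was tested for 3153 transcripts of 1958 genes, as the log2 ratio to the summed other transcripts of the gene. The 1462 genes with 2 transcripts entered once each, through the longer one. Of these, 293 (9.29%) were higher and 841 (26.7%) lower, a split that follows in part from testing the longer of each pair: in the 496 genes of 3 or more transcripts 260 shares were higher and 371 lower. In the pairs, the ratio of the longer to the shorter had a median log2 difference of -1.05, with 470 ratios lower and 33 higher. Among 1213 pairs whose lengths differed by less than 1.2 times, the median was -1.16, and the longer was lower in 382 and higher in 14. Among 72 pairs that differed by 2 times or more the median was -0.60, and the longer was lower in 28 and higher in 9. The fall was thus not larger where the lengths differed more. In 10 pairs of equal length 0 passed. Removing high RIN mouse 8, high RIN mouse 16 or low RIN mouse 3 reduced the number of shares called from 1134 to 698, 735 and 745, and 517 were called at a mean FPKM of at least 5.

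Single shares moved from near 0 to a large part of the gene. Chn1 encodes chimaerin, a Rac GTPase-activating protein. Its shortest transcript of 3 (NM_029716, 3251 bases) made up 14.6% to 60.3% of the gene in low RIN and at most 2.03% in high RIN libraries (log2 7.91, SE 0.75). For Nsmf, a synapse-to-nucleus messenger, NM_020276 held 4.79% to 39.2% in low RIN and at most 0.05% in high RIN libraries. In the other direction, NM_001159662 of Ppp1r16b, a phosphatase regulatory subunit, held at most 0.10% in low RIN and 12.9% to 65.2% in high RIN libraries, although its 6392 bases are only slightly more than the 6370 of the other transcript. The longest transcript of the reticulon gene Rtn4 among the 4 measured (NM_194054, 6165 bases) held at most 1.18% against 1.98% to 19.1%. Cufflinks divides shared reads between transcripts by its model, so such shares rest on the few reads that tell them apart.

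Gene lists were described by their counts and medians beside those of all genes, of which 34.4% were higher and 35.2% lower. Genes of ribosomes, mitochondria and the proteasome were mostly higher. Of 79 cytosolic ribosomal protein genes, 75 were higher and 0 lower, with a median log2 difference of 1.09. Rpl27 had lowest, median and highest values of 282, 363 and 434 against 142, 181 and 236 scaled FPKM, and Rplp0 was 2.07-fold higher. Of 79 nuclear genes of oxidative phosphorylation 72 were higher and 2 lower (median 0.91), among them Ndufs7, a complex I subunit, at 216, 271 and 323 against 102, 124 and 171, and Atp5g2, of the ATP synthase ring (log2 0.90, SE 0.11). Of 76 mitochondrial ribosomal protein genes 70 were higher and 1 lower (median 0.73), with Mrpl52 and Mrpl23 2.96-fold and 2.62-fold higher. Of 37 proteasome subunits 32 were higher and 1 lower (median 0.64), with Psmb3 and Psmd8 2.09-fold and 1.71-fold higher. These are short genes, with median lengths of 679, 679, 1047 and 1296 bases. Less the median of genes of like length, the 4 medians were 0.27, 0.10, 0.06 and 0.07. The sizes depend on scaling: quantile normalization gave medians of 0.38, 0.31, 0.56 and 0.30, and rescaling to a common FPKM sum 0.61, 0.43, 0.26 and 0.16. After that rescaling 74 cytosolic ribosomal genes were higher and 0 lower, 60 and 10 of oxidative phosphorylation, 41 and 9 mitochondrial ribosomal and 18 and 8 of the proteasome.

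Several families of long genes were mostly lower. Of 35 chromatin remodellers and histone methyltransferases 0 were higher and 31 lower, with a median log2 difference of -0.60 and a median length of 8190 bases. Mll5, a SET-domain chromatin regulator, lay at 2.60, 3.37 and 5.23 against 5.81, 9.93 and 10.99 scaled FPKM and shares 874 exon bases with Srpk2 on the other strand. Setd5 was 1.77-fold and Smarca5, a remodelling ATPase, 1.65-fold lower. Of 20 HECT ubiquitin ligases 17 were lower and 0 higher (median -0.69), with Herc3 2.12-fold and Trip12 1.45-fold lower. Of 46 protocadherins, cell adhesion proteins of neurons, 32 were lower and 0 higher (median -0.62), with Pcdh7 3.18-fold lower. Of 46 kinesins, dyneins and myosins 29 were lower and 6 higher (median -0.37), with Kif21a, a kinesin, and Myh10, a non-muscle myosin, 2.76-fold and 1.82-fold lower. Less the median of genes of like length, these 4 medians were -0.03, -0.20, -0.21 and -0.04.

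Genes of synapses and channels were mixed. Of 34 glutamate receptor and scaffold genes 18 were lower and 5 higher (median -0.38). Gria4, an AMPA receptor subunit, lay at 5.59, 6.81 and 9.75 against 9.95, 16.0 and 19.1 scaled FPKM, while the kainate receptor subunit Grik5 lay at 90.4, 119 and 156 against 53.2, 64.4 and 89.8 and the NMDA receptor subunit Grin2c was 1.51-fold higher. Of 13 GABA receptor genes 10 were lower and 1 higher (median -0.60). The 1 that was higher was Gabrd, the extrasynaptic δ subunit, at 1.70-fold, while Gabra2 was 2.33-fold lower. Of 30 sodium and calcium channel genes 17 were lower and 4 higher (median -0.31), with Scn1a and Cacnb4 2.25-fold and 1.84-fold lower. Of 34 genes of synaptic vesicles and release 18 were lower and 7 higher (median -0.42), with Syt5, a calcium sensor, and Napa, a fusion cofactor, 1.74-fold and 1.71-fold higher beside Rims1. Less the median of genes of like length, the medians were 0.05 for glutamate receptors and scaffolds and -0.27 for GABA receptors. They were -0.04 for sodium and calcium channels and -0.02 for synaptic vesicles and release.

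Lists of stress and RNA turnover were split. Of 22 immediate early genes 5 were higher and 6 lower (median -0.11). Egr3 lay at 2.17, 3.62 and 14.3 against 12.2, 23.96 and 35.9 scaled FPKM (log2 -2.33, SE 0.38) with 1 low RIN library, of mouse 12, inside the high RIN range. Homer1 was 1.93-fold lower and Jund, an AP-1 transcription factor gene with 1 exon, 1.68-fold higher. Fos did not pass (log2 -0.17, adjusted p = 0.50). Of 38 genes of RNA decay and the exosome 14 were higher and 15 lower: Exosc5, an exosome subunit, was 2.26-fold higher and Cnot6, a deadenylase, 4.39-fold lower. Translation factors counted 36 higher and 20 lower of 65, with Eif3k 2.14-fold higher and Eif5a2 1.95-fold lower; their median of 0.26 was -0.21 after rescaling to a common FPKM sum. Of 17 heat shock and chaperone genes 4 were higher and 6 lower (Hspe1, 1.65-fold higher), and of 19 hypoxia and glycolysis genes 7 were higher and 5 lower (Vegfa, 1.63-fold lower). Of 21 long noncoding RNAs 13 were higher and 4 lower, with Snhg6, of 407 bases, 1.81-fold higher and Peg13, of 4725 bases, 1.72-fold lower. After rescaling to a common FPKM sum 5 of these RNAs were higher and 8 lower.

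**Figure D4:**
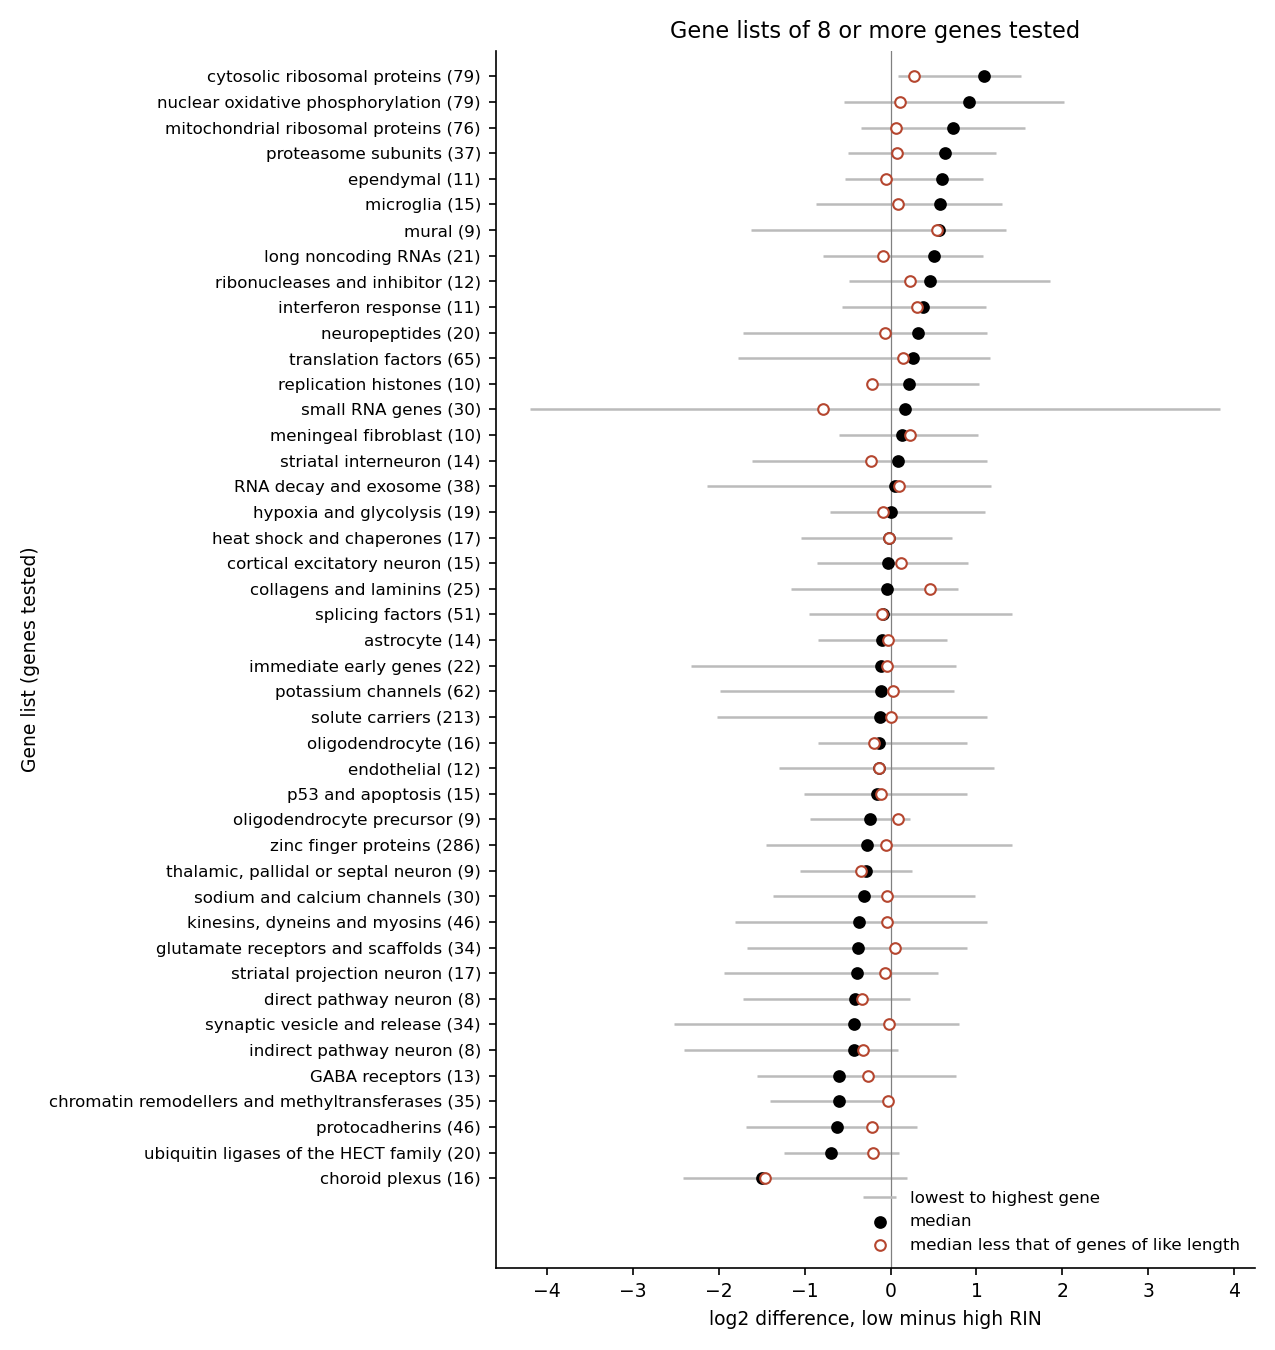
Median log2 difference (low minus high RIN) of each gene list with 8 or more genes tested (black), the range of its genes (grey line) and the median after subtracting that of genes of like length (open circles); numbers of genes stand in brackets. Ribosomal, mitochondrial and proteasome lists are at the top and move toward 0 with the subtraction, while the choroid plexus list at the bottom stays near -1.46.

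Marker genes of cell types were read with the same caution, since in bulk RNA fewer cells of a type and less RNA per cell cannot be told apart. Of 15 microglial genes 9 were higher and 3 lower (median 0.58, and 0.08 less genes of like length). After rescaling to a common FPKM sum 5 were higher and 6 lower (median 0.10). C1qb and C1qa, complement subunits, had medians of 127 against 60.6 and 116 against 51.7 scaled FPKM. The summed level of the list was 607 to 750 in low RIN and 397 to 524 in high RIN libraries. Endothelial genes went both ways: Cldn5, a tight junction protein of 1416 bases, was 2.31-fold higher and Flt1, a VEGF receptor of 6280 bases, 2.46-fold lower, and 5 of 12 were higher and 5 lower. Of 9 mural genes 5 were higher and 2 lower, with Myl9 and Vtn 2.53-fold and 1.99-fold higher and a median of 0.56 that was 0.54 less genes of like length. After rescaling to a common FPKM sum 4 mural genes were higher and 4 lower (median 0.18). Astrocyte genes counted 5 higher and 6 lower of 14 (median -0.10), with log2 differences from -0.84 to 0.66. Among those higher was Ntsr2 (log2 0.66). Oligodendrocyte genes were split evenly, 5 higher and 5 lower of 16, with log2 differences from -0.85 to 0.89. Ermn and Tspan2 were 1.80-fold and 1.66-fold lower, while Opalin lay at 59.6 to 104 scaled FPKM in low RIN against 30.3 to 53.4 in high RIN libraries. Mbp was not called (log2 0.07, limma adjusted p = 0.669). Of 4 blood genes tested 1 was higher: Hba-a1, α-globin, lay at 80.3, 137 and 207 against 36.6, 44.2 and 61.3, and cannot be separated from its copy Hba-a2.

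Striatal neuron genes were lower in part. Of 17 projection neuron genes 8 were lower and 1 higher (median -0.39, and -0.07 less genes of like length). The median was -0.06 among placebo and -0.68 among haloperidol libraries, a difference not tested for the list. The summed level of the list, 2119 to 4165 in low RIN and 2355 to 3525 in high RIN libraries, overlapped. Pde10a, a phosphodiesterase concentrated in these neurons (7717 bases), lay at 11.9, 16.7 and 45.6 against 36.4, 74.3 and 80.1 scaled FPKM (log2 -1.94, SE 0.29, adjusted p = 0.000149). Gpr52, an orphan receptor of indirect-pathway neurons with a transcript of 1086 bases, lay at 0.645, 1.00 and 5.79 against 2.66, 12.3 and 13.1. Bcl11b, a transcription factor, and Gnal, a G protein α subunit, were 1.69-fold and 1.53-fold lower. Among low RIN libraries mouse 12 was the highest for each of these 4 genes. The dopamine receptor genes differed less: Drd1a had a log2 difference of -0.54 (SE 0.20, adjusted p = 0.0247) and Drd2 of -0.39 (SE 0.22, adjusted p = 0.134). The limma call of Drd1a was lost without mouse 3, 5 or 16 (adjusted p = 0.0717, 0.0882 and 0.0516), and Drd2 passed without mouse 12 (log2 -0.52, adjusted p = 0.0191). Ppp1r1b did not pass (log2 0.23, adjusted p = 0.325), nor did the synaptic gene Snap25 (log2 -0.25, adjusted p = 0.135), which passed without mouse 5 (log2 -0.37, limma adjusted p = 0.0339). Of 14 interneuron genes 4 were higher and 5 lower. The neuropeptide genes Sst and Npy, short at 599 and 545 bases, were 2.07-fold and 1.97-fold higher, while Gad1, the GABA-synthesizing enzyme, was 1.56-fold lower.

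Choroid plexus genes had the lowest median of the lists described. This tissue lies in the ventricle beside the striatum and secretes cerebrospinal fluid. Of 16 genes 12 were lower and 0 higher, with a median log2 difference of -1.49. This median was -1.46 less genes of like length and between -1.75 and -1.21 when each library was left out. Among placebo libraries it was -0.95 and among haloperidol libraries -2.01, a difference not tested for the list. The libraries differed widely within the low group. Ttr, transthyretin, measured 17.4, 101 and 155 scaled FPKM in mice 4, 5 and 3, 1681 and 2142 in mice 12 and 10, and 7625 in mouse 2, against 950 to 4204 in the high group, and did not pass (adjusted p = 0.0947), though it did without mouse 2 (log2 -2.99, limma adjusted p = 0.0267). Enpp2, which makes lysophosphatidic acid, lay at 42.1, 79.6 and 260 against 127, 240 and 285 (log2 -1.66, adjusted p = 0.0017). Kl, klotho, and F5, coagulation factor V, were 4.61-fold and 2.85-fold lower. The part of dissection in these values was not tested. Genes of ependymal cells, which line the ventricle, counted 3 higher and 1 lower of 11. Cortical excitatory neuron genes counted 1 and 4 of 15, and thalamic, pallidal or septal neuron genes 0 and 2 of 9.

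The RIN difference was then compared between treatments. A RIN group by treatment term was called for 1 of 12711 genes (590 at an unadjusted p under 0.05). That gene was Snora34, a small nucleolar RNA of 118 bases listed at 0 in all but 2 libraries. Of 12572 genes measured in both treatments, called or not, 11144 (88.6%) had the same sign in the placebo and the haloperidol libraries, which share no library. Fitted alone, 6 placebo libraries gave 7133 calls and 6 haloperidol libraries 5062, with 2 libraries in the smaller RIN group of each. The medians by length were 0.97 and 0.78 at 300 to under 1000 bases, and -0.68 and -0.48 at 6000 bases or more. Cnr1 had log2 differences of -1.38 and -1.49, and Trem2 of 1.29 and 0.89. Penk, which other work links to dopamine D2 receptor blockade, did not differ with RIN beyond its spread (log2 0.09, SE 0.21, adjusted p = 0.718). Its values were 0.56 among placebo and -0.37 among haloperidol libraries, a difference that did not pass (interaction adjusted p = 0.911).

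Across all 16 batch 1 libraries, the 4 intermediate ones included, the length contrast followed RIN with Pearson's r of 0.854 (permutation p = 3e-05) and Spearman's rho of 0.871 (permutation p = 5e-05). The FPKM sum followed it with r of -0.840 (permutation p = 5e-05) and rho of -0.853 (permutation p = 8e-05). Adjusted over 4 relations, these p-values were 0.0001, 0.00016, 0.0001 and 0.00016. Treatment was not a term in these correlations. Without mice 13 and 4, the farthest from the median RIN, r was 0.902 for the length contrast and -0.882 for the FPKM sum. Among the intermediate libraries the length contrast lay between -0.85, at RIN 7.61, and 0.36, at RIN 7.75, so libraries of nearly equal RIN could differ by nearly as much as the group means.

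Batch 2, with 8 haloperidol and 4 placebo libraries from RIN 7.38 to 8.97, gave a check on other mice. There the length contrast had r of 0.521 (permutation p = 0.084, adjusted 0.0842) and rho of 0.385 (permutation p = 0.218), and r was 0.264 without mice 23 and 22. The FPKM sum had r of -0.596 (permutation p = 0.043, adjusted 0.0575) and rho of -0.462 (permutation p = 0.133), and r was -0.396 without those mice. Treatment was not a term in these correlations either. The length contrast in batch 2 lay between 0.53 and 0.84 in placebo and between -0.63 and 1.02 in haloperidol libraries. Limma called 0 of 12825 genes (0%) for the slope on RIN, with 2006 at an unadjusted p under 0.05. With depth as a term 4537 were called, and with array weights 7719. Most genes called in batch 1 had a slope of the same direction in batch 2. Of 4312 genes higher in low RIN batch 1 libraries 4144 (96.1%) had a positive slope toward lower RIN in batch 2, and of 4440 lower genes 4251 (95.7%) a negative one, against 50.6% positive slopes over all genes. Genes are not independent of each other, so these shares describe the same 12 libraries and are not separate checks. The slopes were smaller. Per unit of lower RIN the median was 0.24 in batch 2 against 0.74 over batch 1 for the former genes, and -0.20 against -0.67 for the latter. A RIN by batch term was called for 4558 of 12711 genes, in 4548 of them opposite in sign to the batch 1 slope. Trem2 had slopes of 1.17 in batch 1 and 0.44 in batch 2, and Cnr1 of -1.66 and -0.39.

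**Figure D5:**
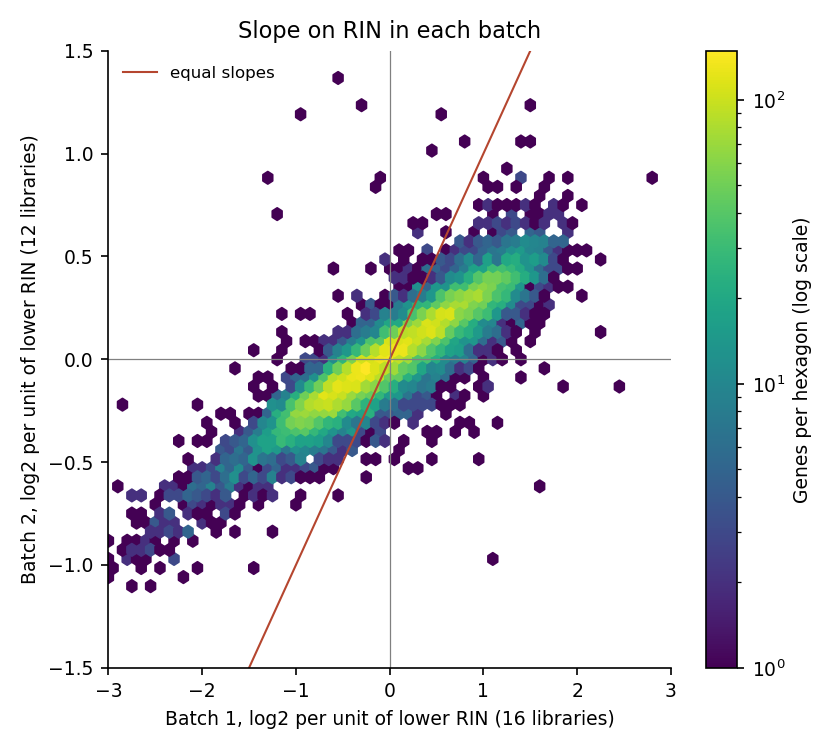
Slope of log2 expression per unit of lower RIN in batch 2 (12 libraries, vertical) against batch 1 (16 libraries, horizontal) for 12550 genes, of which 34 lie outside the axes; colour gives the number of genes per hexagon on a log scale. Most genes have the same sign in both batches, on the side of smaller batch 2 slopes from the line of equal slopes.

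Genes often used as references differed too. Gapdh, a glycolytic enzyme, had lowest, median and highest values of 2113, 3084 and 3665 against 1215, 1356 and 1997 scaled FPKM, a 2.14-fold difference (log2 1.10, SE 0.17, limma adjusted p = 0.000163). Ppia, cyclophilin A, was 1.67-fold and Actb, β-actin, 1.33-fold higher. Both directions depend on scaling: Actb was at -0.06 after rescaling to a common FPKM sum and at -0.41 after quantile normalization, where Ppia was at -0.19 and Gapdh at 0.11. Hprt, a purine salvage enzyme, lay at 84.4, 88.7 and 91.1 against 93.7, 96.2 and 102 and was 1.11-fold lower, without overlap (adjusted p = 0.0359), but at -0.63 after rescaling to a common FPKM sum and at -0.51 after quantile normalization. Its limma call was lost without any 1 of mice 2, 3, 5, 10, 13, 15 and 16 (adjusted p = 0.053 to 0.121). The long noncoding RNA Meg3 was 1.48-fold higher, and at -0.08 after quantile normalization.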

How the data were processed

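The submitters' processing notes name TopHat2 2.0.6, Cufflinks (no version) and mm9. Each file as deposited lists 30563 RefSeq transcripts of 23309 gene symbols with FPKM and its interval, inside the attribute column. The labels call the libraries strand-specific; whether the quantification used strand is not given, so genes overlapping another on the opposite strand (Peg3, Mll5, Myh7, Gnal, F5, Tspan2, Ppp1r1b and, by at most 81 bases, Zscan26 and Atp1b1) are uncertain.

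Gene FPKM was the sum over transcripts. Genes averaging FPKM 1 or more across the 12 libraries were scaled by median of ratios. Their log2(scaled FPKM + 0.5) was tested in R 4.3.3 with limma 3.58.1, using its mean-variance trend and a treatment term, 2-sided, Benjamini-Hochberg adjusted over all genes. Folds are on that scale, which understates low genes. Gene length and exons are those of the transcript with the highest mean FPKM. Length-adjusted differences subtract the median of the same 20th of genes by length. Depth comes from the ratio of coverage to FPKM with 100-base reads, which puts genes of 1 transcript at whole fragments within 0.1 (98.8% to 99.7% of values up to 10 fragments); it covers counting error only. GENCODE M21 transcripts gave GC content and UTRs, by RefSeq accession or by symbol with a length within 10%; the builds differ, so no coordinates were taken from it. Permutation tests ran in Python 3.11.15 with SciPy 1.17.1. The gene fit was tested on simulated data.

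The groups, 45 gene lists and rule for named genes were chosen with earlier results of these data known. The rule took, per direction, up to 12 largest differences, 6 smallest p and 6 most abundant called genes, up to 3 genes per list by p, and a fixed set; some genes it selects are not reported here, among them RNAs under 300 bases and genes that share most exons with a copy. Sequence properties, both interaction terms and the fit without mice 2 and 3 were added after seeing the data. Alternatives covered scaling, pseudocount, filters, covariates, weights and each library left out.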

Additional observations from a re-analysis of the deposited data

Results flagged for a closer look

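In the low RIN group, 1 library lay far from the other 5 for several named genes, by Dixon's criterion, which chance meets in about 1 of 20 groups; 22 of 228 groups met it. Most were mouse 12 (RIN 7.47, placebo), which also had the highest length contrast (-0.13) and the lowest FPKM sum (478675) of the low RIN libraries. It was highest, with the next library in brackets, for Pde10a at 45.6 (19.2), Bcl11b at 20.1 (12.2), Gnal at 101 (69.0), Pdyn at 31.4 (10.49), Gpr52 at 5.79 (1.54), Egr3 at 14.3 (6.24), Homer1 at 27.7 (18.4), Drd1a at 51.8 (31.6), Mef2a at 2.13 (0.932), Peg3as at 6.42 (2.72), Strn at 4.58 (1.90), Rims3 at 4.34 (2.87), Ndrg4 at 660 (469) and Flt1 at 2.96 (1.78) scaled FPKM. It was lowest for Nudt22 at 7.66 (9.08), Prpf19 at 35.03 (42.6) and Ppia at 1769 (2361). Leaving it out gave 9058 calls. Mouse 10 was highest for Kif5a at 394 (355).

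Choroid plexus genes stood out in mouse 2 of the low group, with Ttr at 7625 (2142 in the next library) and F5 at 2.63 (0.877), and Ttr at 4204 (1837) in mouse 9 of the high group. Mouse 9 was also highest of the high group for Snhg6, at 57.1 (40.9).

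Snora34 was the gene whose RIN difference differed between treatments, by 7.78 on the log2 scale (limma adjusted p = 7.492e-09). It was listed at 0 in 10 libraries and at 95.6 and 126 scaled FPKM in the high RIN placebo libraries of mice 16 and 8. At 118 bases, below the fragment length assumed for depth, its FPKM is uncertain.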

How the results depend on the processing

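The number of genes called between RIN groups kept within 1.5 times of 8843 except at 0 with the log2 FPKM sum as a term and 5062 in haloperidol libraries alone, which are fewer samples. Leaving out each library gave 7909 to 9058 genes, 7936 to 9602 transcripts and 698 to 1243 transcript shares. Shares called numbered 517 at a mean FPKM of at least 5, where fewer were tested. The batch 2 slope gave 0 genes without each library, 4537 with depth as a term and 7719 with array weights; the cause was not tested. The exon contrast was -0.0097 within 4000 to under 6000 bases and 0.012 at a mean FPKM of at least 5. The FPKM sum differed by 106544 to 125843, and the length contrast by -1.32 to -1.15, without each library. Of 109 named genes, 78 kept direction and call under all settings but the FPKM sum term, and 25 reversed under some setting.

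With the log2 FPKM sum as a term, log2 differences reversed to -0.16 for Crip1, -0.17 for Lst1, 0.13 for Mef2a, 2.12 for Clasp2, 0.19 for Fam171b, 0.039 for Peg3, 0.22 for Uhmk1, 0.032 for Ndrg4, 0.19 for Glul, 0.056 for Egr3, 0.11 for Flt1, 0.68 for Pdyn, 0.59 for Gpr52, -0.010 for Bai1, -0.0038 for Prpf19, 0.0092 for Rims3, 0.14 for Rnf141, -0.12 for Ppp1r1b and -0.0054 for Mbp. Rescaling to a common FPKM sum put Actb at -0.063, Penk at -0.39, Ppp1r1b at -0.25 and Mbp at -0.41. Quantile normalization put Fth1 at -0.048, Actb at -0.41, Ppia at -0.19, Meg3 at -0.083, Penk at -0.73, Ppp1r1b at -0.56 and Mbp at -0.80. Genes not called also reversed elsewhere. Penk was -0.0035 unscaled, -0.0094 at a mean FPKM of at least 5, -0.10 without the treatment term, -0.049 and -0.055 as slopes over 12 and 16 libraries, -0.37 in haloperidol libraries, and -0.070 (without high RIN mouse 8) to 0.28 with each library left out, with -0.020 without low RIN mouse 12. Ppp1r1b was -0.17 in haloperidol libraries. Fos was 0.22 with array weights, 0.10 in placebo libraries, 0.055 without mice 2 and 3, and -0.36 to 0.0052 (without low RIN mouse 3) with each library left out. Mbp was -0.024 unscaled, -0.030 at a mean FPKM of at least 5, -0.012 with depth as a term, -0.16 in haloperidol libraries and -0.0059 (without high RIN mouse 8) to 0.18 with each library left out. These causes were not tested. No paired analysis was possible because the RIN groups share no mouse number. Depth limits low genes: the shallowest library has 8.78 fragments for a 2000-base gene at FPKM 1.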
